A study of Mus musculus with 6 samples.

Results

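The proteasome genes described here are the 46 genes whose symbols start with Psma to Psmg followed by a digit, in a table of 15601 genes counted in liver lymphocytes of mice. Members were taken by name. The 4 pseudogene symbols were left out, as was Psma8, the testis-type α subunit, with 3 counts, all in oil replicate 3, against a minimum of 60. The other two interferon-inducible catalytic subunits besides Psmb10 were not analysed here. By role, 7 members encode the α ring and 8 the β ring of the core particle, 6 the ATPases and 3 the other subunits of the base, 8 the lid, 6 the activators and the inhibitor, and 7 assembly chaperones. The remaining member, Psmc3ip, matched by name alone: it encodes a partner of the base ATPase PSMC3 that is known as a cofactor of meiotic recombination, and it is not a subunit.

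The cells were liver lymphocytes, and the title of the study speaks of ILC1s (innate lymphoid cells of type 1, tissue-resident relatives of natural killer cells) and of the nuclear receptor RORα. The samples were 3 RNA-seq libraries from mice given oil (the vehicle, corn oil in the column names) and 3 from mice given tamoxifen, which binds oestrogen receptors and is widely used to activate inducible Cre recombinases. The labels used here give no genotype, promoter, dose, time, age or number of cells per library, and their protocol speaks of single cells. Nothing in them says that the libraries of a group came from separate animals, so the p-values measure the spread between libraries, which may be technical.

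The proteasome degrades proteins tagged with ubiquitin. Its core particle is a barrel of stacked α and β rings with the proteolytic sites inside, on the β subunits. The regulatory particle caps the barrel: its base holds a ring of ATPases that unfold substrates and receptors that bind ubiquitin, and its lid removes the ubiquitin chain. In lymphocytes, interferon-γ is known to induce alternative catalytic subunits and the PA28 activator, which together favour the making of peptides for MHC class I. When proteasome activity falls, the transcription factor NFE2L1 is known to raise subunit genes together through antioxidant response elements in their promoters.

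Library totals were 5289803 to 6325899 counts, and 13060 to 13414 genes were counted at least once in each library. Ncr1, the gene of the NK and ILC1 receptor NKp46, was read for the ILC1s that the title names. It stood at 1120 to 1365 CPM (counts scaled to library size) in oil and 1153 to 1334 CPM in tamoxifen. All 7 ILC1 and NK markers were listed, at 2659 to 2966 CPM in sum in oil and 2579 to 2688 CPM in tamoxifen. Among them Klrb1c stood at 726 to 858 CPM in oil and 868 to 1009 CPM in tamoxifen. Its groups did not overlap, which held in that direction for 4.52% of all genes tested. It was not called by edgeR's quasi-likelihood test (adjusted p = 0.999). With Ncr1 and Klrb1c taken out, the sum of the other ILC1 and NK markers was lower in every tamoxifen library than in every oil library. Of single genes tested, 4.35% had groups apart in that direction. The other markers are not given singly here, and the difference of their sum was not tested. The ILC1 and NK markers are shared by both cell types or were summed over both. Rora, whose product the title names, stood at 24.1 ± 3.91 CPM in oil and 17.4 ± 3.59 CPM in tamoxifen (SD, n = 3), without a call by edgeR's quasi-likelihood test (adjusted p = 0.999). Of 8 T cell markers 7 were listed, at 204 to 315 CPM in sum in oil and 230 to 423 CPM in tamoxifen, highest in tamoxifen replicate 3. Of 5 B cell markers 2 were listed, at 397 to 485 CPM in sum in oil and 365.6 to 399.6 CPM in tamoxifen. Of 5 hepatocyte markers 3 were listed, at 13.9 to 21.6 CPM in sum in oil and 22.9 to 30.7 CPM in tamoxifen.

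The 5 promoters below carry the letter matches to which the subunit groups are compared further on. They were taken from RefSeq (GRCm38.p6), each as the 250 bases before the annotated start, 5′ to 3′ on the gene's strand. Psmb5 (chr14:54617996-54618245, minus strand) and Psmb6 (chr11:70525107-70525356, plus strand) encode constitutive catalytic subunits and hold TGACNNNGC, the core of the antioxidant response element. Psmd4 (chr3:95042615-95042864, minus strand), Psmd2 (chr16:20651402-20651651, plus strand) and Psmd6 (chr14:14120946-14121195, minus strand) belong to the base and the lid and hold CCGGAAG, a core bound by ETS factors. Capitals mark these matches and, in Psmd4, also CCAAT and a pair of GAAA runs that are 2 bases apart, each on either strand.
Psmb5: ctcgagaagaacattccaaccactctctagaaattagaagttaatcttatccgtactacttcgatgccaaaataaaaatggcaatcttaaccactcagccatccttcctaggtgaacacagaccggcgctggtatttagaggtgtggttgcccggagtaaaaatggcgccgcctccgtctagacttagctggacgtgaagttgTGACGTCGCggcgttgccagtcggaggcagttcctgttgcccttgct
Psmb6: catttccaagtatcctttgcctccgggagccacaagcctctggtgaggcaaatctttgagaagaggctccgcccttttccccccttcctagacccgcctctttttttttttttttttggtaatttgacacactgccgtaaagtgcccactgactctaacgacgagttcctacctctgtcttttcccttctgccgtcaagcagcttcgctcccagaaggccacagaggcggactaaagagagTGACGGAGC
Psmd4: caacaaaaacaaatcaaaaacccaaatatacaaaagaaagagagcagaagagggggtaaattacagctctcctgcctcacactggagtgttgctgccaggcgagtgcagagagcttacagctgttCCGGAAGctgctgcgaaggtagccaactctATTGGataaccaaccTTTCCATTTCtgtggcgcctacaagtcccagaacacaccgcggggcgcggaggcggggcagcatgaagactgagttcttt
Psmd2: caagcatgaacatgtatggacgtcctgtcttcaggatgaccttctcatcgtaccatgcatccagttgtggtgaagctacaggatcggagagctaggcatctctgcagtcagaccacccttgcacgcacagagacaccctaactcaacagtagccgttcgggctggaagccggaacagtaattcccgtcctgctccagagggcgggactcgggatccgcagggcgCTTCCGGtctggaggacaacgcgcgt
Psmd6: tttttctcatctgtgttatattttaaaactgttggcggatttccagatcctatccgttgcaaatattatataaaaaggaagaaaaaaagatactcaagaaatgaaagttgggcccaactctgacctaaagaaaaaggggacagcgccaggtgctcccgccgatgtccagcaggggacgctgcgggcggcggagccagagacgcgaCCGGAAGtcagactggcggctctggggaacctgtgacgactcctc

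Those letters were searched on both strands in windows of 300 bases (250 before to 50 after the start), of which the table held 42 for 39 of the 46 members. CCGGAAG was in 16 of the 42 windows (38.1%), against 8.86% of all 32851 windows and 19.8% of the 10078 windows of genes that were tested for expression. It was in 1 of 13 windows of α and β ring genes and in 15 of 29 windows of the other members. TGACNNNGC was in 6 windows (14.3%, against 12.4% of all windows and 14.5% of those of tested genes), those of Psmb5, Psmb6, Psmc6, Psmd12, Psmd9 and Psme4. CCAAT was in 13 windows (31.0%, against 37.4% of all and 38.2% of those of tested genes). A pair of GAAA runs 2 bases apart, the core of interferon-response sites, was in 5 windows (11.9%, against 3.44% of all and 3.25% of those of tested genes). These were the windows of Psmb3, Psmd4, Psmd9, Psme1 and Psmg4. These are matches of letters, and no binding was measured.

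Proteasome genes were abundant, and none was called as differing between oil and tamoxifen. Together the members took 1.27%, 1.16% and 1.46% of all counts in oil replicates 1, 2 and 3, and 1.36%, 1.24% and 1.35% in tamoxifen replicates 1, 2 and 3. The tamoxifen libraries lay within the range of the oil libraries. All 46 members passed the expression filter. With p-values adjusted by Benjamini-Hochberg over all 10811 genes tested, the quasi-likelihood test of edgeR called 0 of the 46 members in either direction, against a background of 0.00925% (1 gene). At an unadjusted p under 0.05 it found 0 members, where 3.52% of all genes tested stood. DESeq2 on the same counts likewise called 0 members, against 21 of all 15601 genes. At an unadjusted p under 0.05 by DESeq2 stood 0 members, against 453 of all genes. In the authors' deposited table, 0 members had a q-value under 0.05, against 0.147% of its genes, and 0 had a p-value under 0.05, against 3.14%.

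The log2 fold change (tamoxifen over oil) was -0.19 (Psmc6) to 0.28 (Psmc3ip), with 28 members above 0 and 18 below, where 49.5% of all genes tested lay above 0. An estimate under 0.3 in size, which all 46 members had, was found in 67.8% of all genes tested. The median was 0.03 over the members, against -0.00 over all genes tested. The groups overlapped for all 46 members, whereas 8.87% of all genes tested had groups that did not (4.52% with tamoxifen above oil, 4.35% below). The 95% intervals of the members reached from -0.77 (the lower bound of Psmg4) to 0.82 (the upper bound of Psmc3ip), so changes of 2-fold or more lay outside the interval of each of them, while smaller changes remain possible. If the libraries hold many cells, a change in RNA per cell and a change in the mix of cells cannot be told apart.

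**Figure D1:**
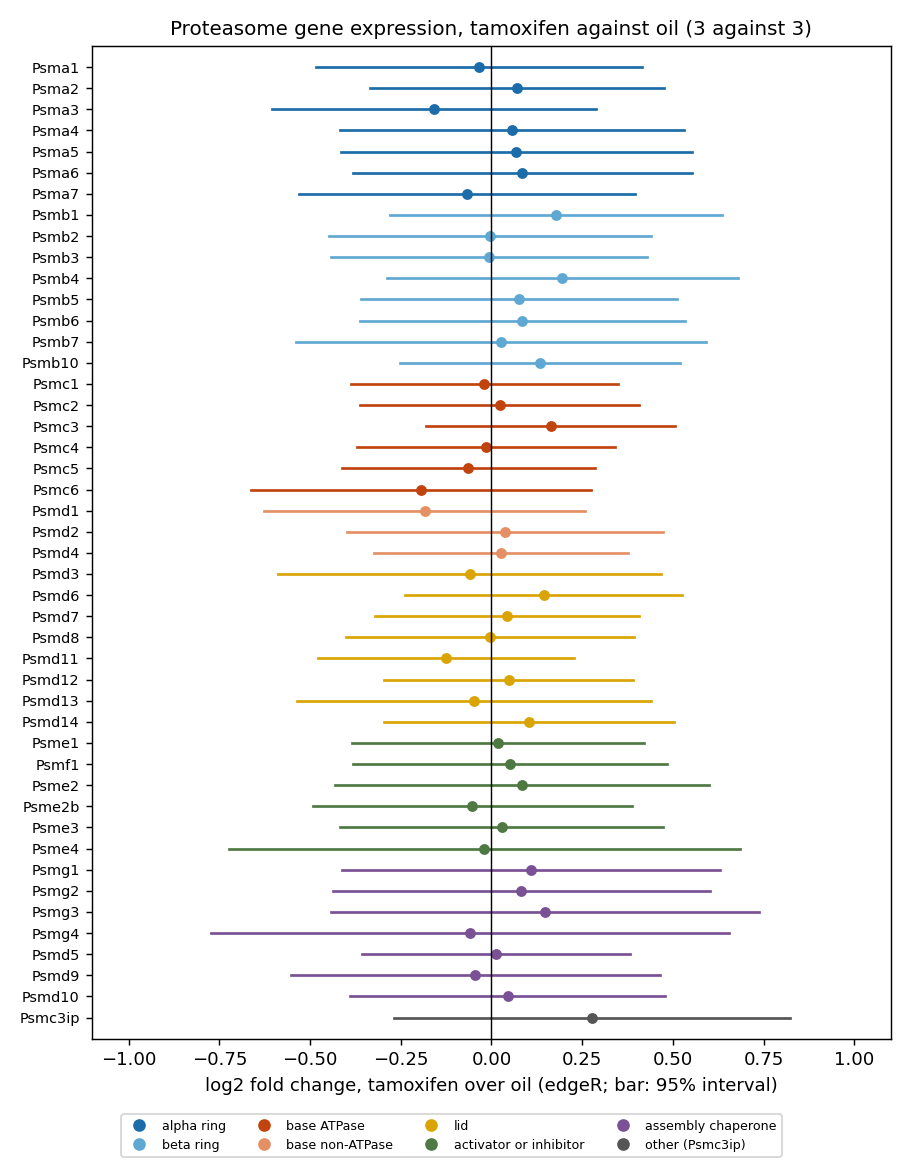
Log2 fold change of each of the 46 genes, tamoxifen over oil, from edgeR (points) with its 95% interval (bars), coloured by class. Estimates run from -0.19 to 0.28 and every interval includes 0.

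The α ring, which forms the gated entrance of the barrel, was represented by 7 genes, 4 with estimates above 0 and 3 below (median log2 fold change 0.06). Psma3 (chromosome 12, 70974621 to 70996347, plus strand; gene coordinates here are those of the deposited table, mm10) had the smallest p-value of the ring. It stood at 109, 96.0 and 144 CPM in oil replicates 1, 2 and 3 and at 109, 90.6 and 112 CPM in tamoxifen replicates 1, 2 and 3. Oil replicate 3 was the highest of the 6 libraries, and the other libraries of the groups overlapped. Its log2 fold change was -0.16 (SE 0.20; edgeR adjusted p = 0.999). Psma6 (plus strand of chromosome 12, 55384222 to 55418454) had 242, 211 and 364 CPM in oil and 293, 260 and 314 CPM in tamoxifen. Here too the oil libraries spanned a wider range than the tamoxifen libraries, which lay inside it (0.09, SE 0.21).

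Psma2 had the highest FPKM of all members, 610.4 in oil and 639.6 in tamoxifen by the authors' deposited means. Scaled to library size it stood at 522, 488 and 723 CPM in oil and 671, 550.3 and 599 CPM in tamoxifen, a log2 fold change of 0.07 (SE 0.18). Psma7, the broadly expressed paralogue of Psma8, stood at 518, 419 and 704 CPM in oil and at 578, 429 and 557 CPM in tamoxifen. Replicate 2 was the lowest library of each group (-0.07, SE 0.21). The remaining α genes, Psma1, Psma4 and Psma5, had log2 fold changes of -0.03, 0.06 and 0.07.

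The β ring carries the proteolytic sites. Of its 8 genes 6 had estimates above 0 and 2 below (median log2 fold change 0.08). Psmb4 (chromosome 3, 94884093 to 94886961, minus strand), which encodes a subunit without catalytic activity, stood at 136, 125 and 211 CPM in oil and at 198, 157 and 186 CPM in tamoxifen. Psmb1 (chromosome 17, 15475721 to 15498276, minus strand), also non-catalytic, stood at 453, 396 and 664 CPM in oil and at 604, 488 and 619 CPM in tamoxifen. For both genes the tamoxifen libraries exceeded oil replicates 1 and 2 and lay below oil replicate 3. Their log2 fold changes were 0.20 (SE 0.22) and 0.18 (SE 0.21).

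Psmb10 encodes the interferon-inducible form of the trypsin-like catalytic subunit and takes the place of the product of Psmb7. Psmb10 (chromosome 8, 105935728 to 105938392, minus strand) stood at 436, 383 and 524 CPM in oil and at 475, 439.7 and 561 CPM in tamoxifen (log2 fold change 0.13, SE 0.17). Psmb7 (chromosome 2, 38588036 to 38644087, minus strand) stood at 81.7, 78.3 and 133 CPM in oil and at 110, 73.2 and 115 CPM in tamoxifen (0.03, SE 0.26). The inducible gene was the higher in all 6 libraries. Per kilobase of coding length, Psmb10 exceeded Psmb7 by 5.42-, 4.96- and 4.01-fold in oil and by 4.40-, 6.09- and 4.93-fold in tamoxifen. These ratios overlapped between the groups (exact permutation test over libraries, two-sided, p = 0.8, and 0.8 after Benjamini-Hochberg adjustment over 3 ratios, where 0.1 is the smallest p that 3 against 3 allows). The constitutive catalytic genes Psmb5 and Psmb6 had estimates of 0.08 and 0.09 in log2 (SE 0.20 each), and Psmb2 and Psmb3 of -0.00 and -0.01.

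The levels of core genes differed from each other far more than they differed between treatments. Per kilobase of coding length, Psmb2 was highest at 981 ± 179 CPM per kb (SD over 6 libraries) and Psmb7 lowest at 119 ± 29.1, an 8.28-fold range. Psmb3 and Psmb6 followed at 915 ± 159 and 886 ± 163, then Psma2 (843 ± 129), Psmb1 (746 ± 148), Psma7 (718 ± 142), Psma1 (631 ± 121) and Psmb10 (574 ± 78.8). Each of these differed from its neighbour by less than their SDs, which include shifts that the genes of a library share. Compared within libraries, 8 of the 14 neighbouring pairs kept their order in all 6 libraries, among them Psmb2 over Psmb3. The order varied for Psmb3 over Psmb6 (5 of 6 libraries), Psmb6 over Psma2 (4 of 6), Psma2 over Psmb1 (5 of 6), Psmb1 over Psma7 (3 of 6), Psma1 over Psmb10 (5 of 6) and Psma6 over Psma4 (5 of 6). A gap larger than the SD of either gene lay between Psmb10 and Psma6 (380.4 ± 74.3). The same held between Psma4 (351 ± 64.9) and Psmb5 (263 ± 43.4), between Psmb5 and Psmb4 (213 ± 43.9), and narrowly between Psmb4 and Psma5. At the lower end, Psma5, Psma3 and Psmb7 (169 ± 32.5, 144 ± 24.2 and 119 ± 29.1) stood in that order in all 6 libraries. The subunits are present in equal numbers in the assembled barrel, and these values are of RNA counts only.

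That order depended on the length used. The deposited FPKM and counts of the authors imply a gene length that was a median of 3.17 and up to 12.7 times the coding length of the principal GENCODE transcript, and 10339 bases for Psmf1, whose coding length is 813 bases. In FPKM the core genes spanned 35.7-fold, from 625 (Psma2) to 17.5 (Psma3), and Psma7, the 6th of all members per coding kilobase, was the 16th. The order of the 46 members on both scales had a Spearman's rho of 0.84, a description over genes that share the same libraries.

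**Figure D2:**
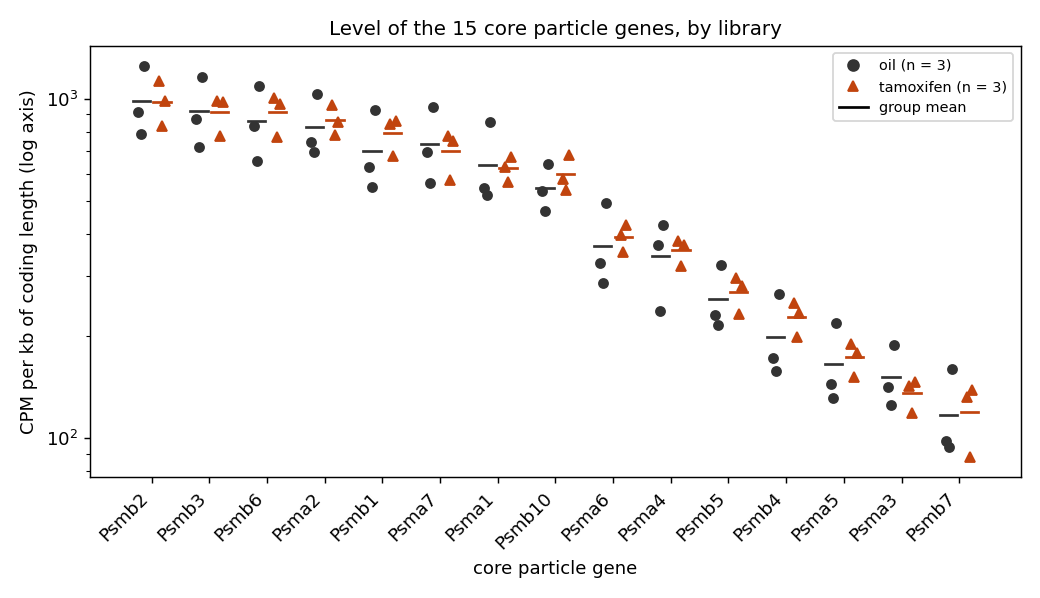
Level of the 15 core particle genes in CPM per kilobase of coding length (log axis), oil libraries as circles and tamoxifen libraries as triangles, with group means as lines. Genes are ordered from Psmb2 (mean 981) to Psmb7 (mean 119), and the groups overlap at every gene.

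The base of the regulatory particle unfolds substrates with 6 ATPases. Of these, 2 had estimates above 0 and 4 below (median log2 fold change -0.02). Psmc3 lies on chromosome 2 (91054009 to 91066369, plus strand) and had 374, 383 and 424 CPM in oil and 486, 397 and 440.2 CPM in tamoxifen, a log2 fold change of 0.16 (SE 0.16). Psmc6 (plus strand of chromosome 14, 45329824 to 45349071) had 155, 166 and 248 CPM in oil and 181, 141 and 175 CPM in tamoxifen (-0.19, SE 0.21). The estimate of Psmc3 was upward and that of Psmc6 downward although their products sit in the same ring, and both sets of libraries overlapped. Psmc1 had the highest FPKM of the ATPases and stood at 546, 476 and 608 CPM in oil against 575, 460.0 and 573 CPM in tamoxifen (-0.02, SE 0.17). Psmc2, Psmc4 and Psmc5 lay between -0.06 and 0.02.

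The other base genes encode the scaffold subunits Psmd1 and Psmd2 and the ubiquitin receptor Psmd4. Psmd1 (plus strand of chromosome 1, 86064387 to 86139151) had 303, 335 and 215 CPM in oil and 272, 269.6 and 209.7 CPM in tamoxifen. Psmd2 (plus strand of chromosome 16, 20651652 to 20663414) had 562, 533 and 357 CPM in oil and 461, 570.1 and 459.8 CPM in tamoxifen. In contrast to the core genes, oil replicate 3 was the lowest oil library for both scaffolds. Their log2 fold changes were -0.18 (SE 0.20) and 0.04 (SE 0.20). Psmd4, whose promoter is printed above, was among the steadiest members, at 224, 232 and 263 CPM in oil against 231, 237 and 265 CPM in tamoxifen (0.03, SE 0.16).

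The lid genes had 4 estimates above 0 and 4 below (median log2 fold change 0.02). Psmd6 (chromosome 14, 14112184 to 14120984, minus strand) stood at 268, 224 and 292 CPM in oil and at 301, 249.9 and 315 CPM in tamoxifen (0.14, SE 0.17). Psmd11 (plus strand of chromosome 11, 80428615 to 80473248) had 177, 178 and 172 CPM in oil and 146, 173 and 164 CPM in tamoxifen (-0.13, SE 0.16). Psmd11 had the smallest spread of all members, an SD of 0.09 in log2 CPM within groups. Psmd7, the lid gene with the highest FPKM, stood at 301, 249 and 284 CPM in oil and at 269, 264 and 325 CPM in tamoxifen (0.04, SE 0.17). Psmd14, which encodes the deubiquitinase of the lid, stood at 427 ± 78.3 and 459 ± 57.2 CPM (0.10, SE 0.18). Psmd3, Psmd8, Psmd12 and Psmd13 lay between -0.06 and 0.05.

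Activators open the barrel without ATP, and Psmf1 encodes an inhibitor of the core. Of these 6 genes 4 had estimates above 0 and 2 below (median log2 fold change 0.02). Psme2 (chromosome 14, 55587441 to 55591113, minus strand), the β chain of the interferon-inducible activator PA28, stood at 201, 250.2 and 337 CPM in oil and at 346, 210.1 and 279 CPM in tamoxifen (0.08, SE 0.23). Psme2b (chromosome 11, 48945354 to 48946190, minus strand), a copy of that gene, stood at 385, 339 and 536 CPM in oil and at 422, 344 and 449 CPM in tamoxifen (-0.05, SE 0.20). Their transcripts are 99.4% identical over 794 bases, so reads of either gene may have been counted to the other and the level of each is uncertain. Psme2b had 13974 counts and Psme2 9100. The ratio of their levels was 1.36 to 1.92 in oil and 1.22 to 1.64 in tamoxifen (exact permutation test, two-sided, p = 0.7, adjusted 0.8).

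Psme1, the α chain of PA28, stood at 289, 289.6 and 399.8 CPM in oil and at 329, 294 and 368 CPM in tamoxifen (log2 fold change 0.02, SE 0.18). Psme3, the nuclear activator PA28γ, stood at 160.1 ± 27.1 CPM in oil and 163 ± 30.6 CPM in tamoxifen (SD, n = 3). Psme4, the activator PA200 known for its role with acetylated histones, was the lowest member by far at 13.2 ± 2.36 and 13.0 ± 2.21 CPM. Per kilobase of coding length, Psme1 exceeded Psme4 by 135- to 251-fold in oil and by 148- to 260-fold in tamoxifen (exact permutation test, two-sided, p = 0.8). Psmf1 stood at 132 ± 25.7 and 136 ± 18.1 CPM (0.05, SE 0.20).

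Assembly chaperones guide the rings together and leave the finished particle. Their 7 genes had 5 estimates above 0 and 2 below (median log2 fold change 0.04). Psmg3 (chromosome 5, 139823592 to 139826885, minus strand), of the α ring chaperones, stood at 27.6, 26.1 and 43.8 CPM in oil and at 36.0, 32.9 and 39.0 CPM in tamoxifen (0.15, SE 0.27). Psmg1, another α ring chaperone, stood at 62.7, 50.7 and 82.4 CPM in oil and at 70.2, 58.5 and 82.3 CPM in tamoxifen (0.11, SE 0.24). Psmg2, which forms a dimer with Psmg1, stood at 84.4, 69.9 and 112 CPM in oil and at 106, 70.9 and 105 CPM in tamoxifen (0.08, SE 0.24). Replicate 2 was the lowest library of its group for each of these 3 genes. The base chaperones Psmd5, Psmd9 and Psmd10 had log2 fold changes of 0.01, -0.04 and 0.04.

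Psmc3ip (chromosome 11, 101091823 to 101095436, minus strand) had the smallest p-value among the 46. It stood at 40.3, 32.8 and 49.4 CPM in oil and at 52.7, 39.3 and 56.6 CPM in tamoxifen, a log2 fold change of 0.28 (SE 0.25; unadjusted p = 0.288, adjusted p = 0.999 by edgeR). Tamoxifen replicate 2 lay below oil replicates 1 and 3, so the groups overlapped. Its annotated exons share 21.2% of their bases with Mlx on the opposite strand, and whether counting used strand was not given, so reads in the shared bases cannot be told apart.

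Larger differences ran between libraries within a group. Among the oil libraries, replicate 3 was the highest and replicate 2 the lowest for all 15 α and β ring genes. The summed level of the β ring was 2971, 2538 and 4036 CPM in oil replicates 1, 2 and 3 and 3620 (tamoxifen replicate 1), 2869 (replicate 2) and 3589 CPM (replicate 3). That of the α ring was 2215, 1905 and 3096 CPM in oil against 2584, 2140.1 and 2533 CPM in tamoxifen. The sum of the base subunits other than ATPases was lowest in oil replicate 3, at 1088, 1100.0 and 836 CPM in oil and 963, 1077 and 934 CPM in tamoxifen. Psmd1 and Psmd2 carried this, while Psmd4 was highest in replicate 3 of each group. Within groups, the SD of log2 CPM had a median of 0.27 over the members, against 0.34 over all genes tested.

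**Figure D3:**
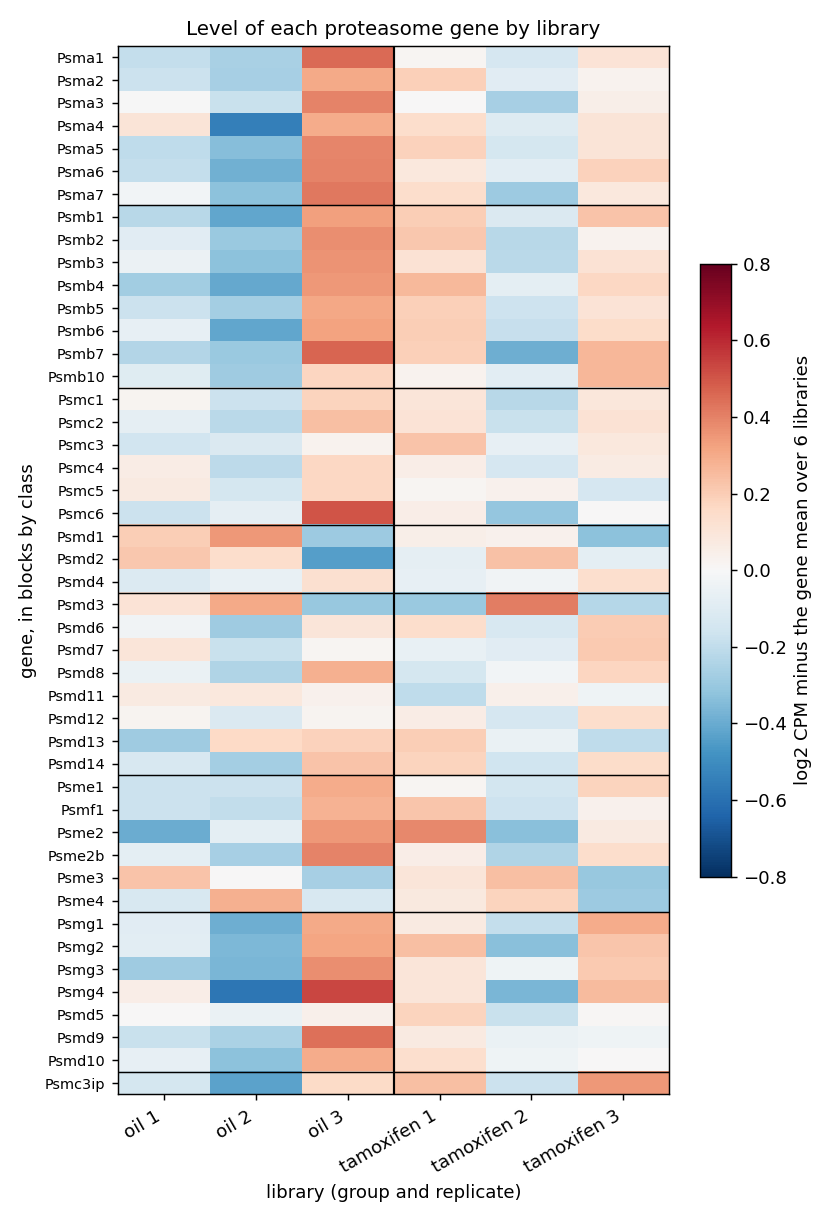
Log2 CPM of each gene minus its mean over the 6 libraries, with genes in blocks by class and a vertical line between oil and tamoxifen. Red in oil replicate 3 and blue in oil replicate 2 fill the α and β blocks, while Psmd1, Psmd2 and Psmd3 have the opposite colours.

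These library differences went with transcript length. The pairs of libraries compared here were chosen after their values were seen. From oil replicate 2 to oil replicate 3, 40 of the 46 members were higher and 6 lower, with a median difference of 0.54 in log2 CPM, while the median over 9922 genes tested with a coding transcript was -0.04. The 29 members with a coding length under 1000 bases had a median difference of 0.67, the 14 members from 1000 to below 2000 bases 0.25, and the 3 longest, Psmd1, Psmd2 and Psme4, -0.58. The 6 lower members were Psmd1 (-0.64), Psmd3 (-0.61), Psmd2 (-0.58), Psme4 (-0.41), Psme3 (-0.27) and Psmd11 (-0.05). Spearman's rho between this difference and coding length was -0.73 over the members and -0.48 over the 9922 genes. With GC content in place of length it was -0.01 and -0.03.

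Tamoxifen replicates 3 and 2 differed in the same direction, by less. Here 38 members were higher in replicate 3 and 8 lower (median 0.26), with a rho of -0.42 with coding length over the members and -0.39 over all 9922 genes. Psmd3 (-0.63), Psme3 (-0.54), Psme4 (-0.47), Psmd1 (-0.36) and Psmd2 (-0.31) were again the lowest. Psme3 has a coding length of 762 bases and a principal transcript of 2664 bases. With transcript length the rho over the members was -0.68 in oil and -0.64 in tamoxifen. Over all 9922 genes the rho with transcript length was -0.46 in oil and -0.36 in tamoxifen, against -0.48 and -0.39 with coding length. These correlations are descriptions over genes that share libraries. The share of mitochondrially encoded counts was also lower in replicate 2 than in replicate 3, at 0.779% and 1.25% in oil and 0.987% and 1.17% in tamoxifen, while oil replicate 1 had 0.689%. The summed level of 5 erythroid markers, all 5 listed, was 3.10 CPM in oil replicate 2 and 569 CPM in oil replicate 3 (135 in oil replicate 1), and ran from 74.7 CPM in tamoxifen replicate 2 to 232 CPM in tamoxifen replicate 3. The part of either in the differences was not tested.

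**Figure D4:**
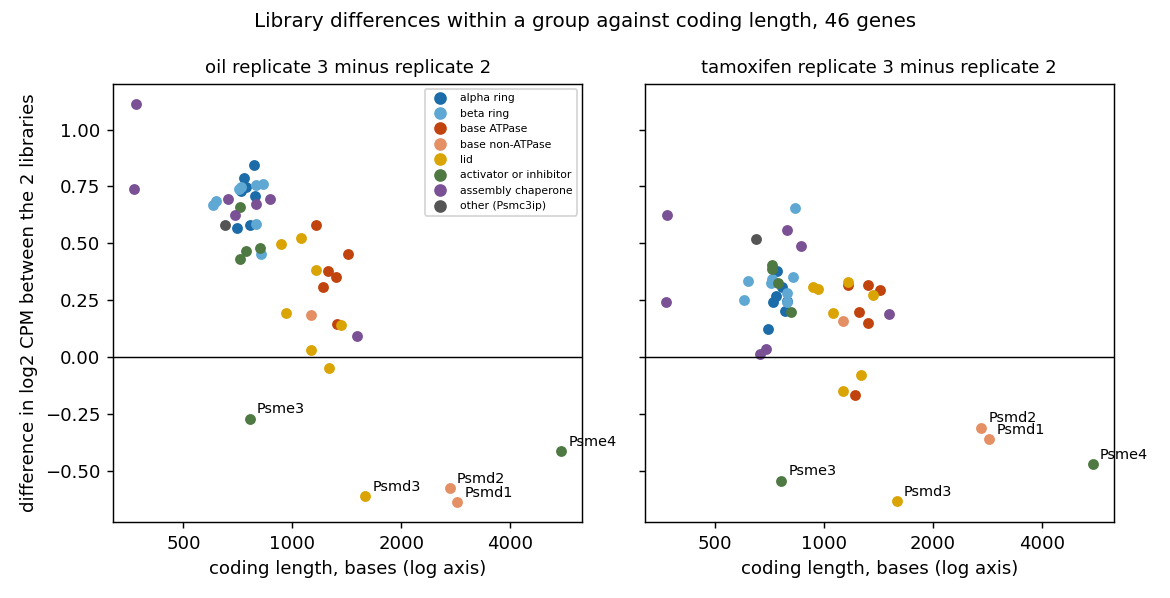
Difference in log2 CPM between replicate 3 and replicate 2 of oil (left) and of tamoxifen (right) against coding length (log axis), 1 point per gene, coloured by class. All genes with a coding length under 1000 bases but Psme3 lie above 0 in both panels, and Psmd1, Psmd2, Psmd3 and Psme4 lie below.

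The estimates leaned on oil replicate 3. Without it, 39 of the 46 members had estimates above 0, against 49.0% of all genes tested in that fit, and the median log2 fold change of the members was 0.20. Psmb4 (0.46, SE 0.18) and Psmb1 (0.42, SE 0.16) were the 2 members at an unadjusted p under 0.05, where 8.02% of all genes stood. Their adjusted p was 0.609 by edgeR, and 0 members were called, against 0.0361% of all genes. Psmd1 then had an estimate of -0.36. Without oil replicate 2 the median was -0.05, with 16 members above 0 against 50.1% of all genes. A trend of each library with gene length was also modelled as an offset, and the median was then 0.02. The length used there was the one implied by the authors' counts and FPKM, not the coding or transcript length compared above.

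Other genes of the pathway were taken from lists, and edgeR called none of them. Of 9 further subunits, deubiquitinases and assembly factors tested, 4 had estimates above 0 and 5 below (median log2 fold change -0.03), and 1 stood at an unadjusted p under 0.05. This was Akirin2, whose product brings proteasomes into the nucleus, at 25.6, 21.7 and 31.3 CPM in oil and 46.6, 42.3 and 34.9 CPM in tamoxifen. Every tamoxifen library lay above every oil library, which held in that direction for 4.52% of all genes tested (0.65, SE 0.25; unadjusted p = 0.0247, adjusted p = 0.999 by edgeR). Uchl5, a deubiquitinase of the base, had the next smallest p-value, at 236, 189 and 246 CPM in oil and 229.5, 179 and 173 CPM in tamoxifen (-0.21, SE 0.18). The other 7 tested genes of this list lay between -0.17 and 0.13.

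The list on the control of proteasome genes held 10 tested genes, 5 above 0 and 5 below (median log2 fold change -0.02). Nfe2l1, the transcription factor of the recovery response, stood at 4.03, 22.1 and 7.92 CPM in oil and at 7.95, 6.78 and 6.29 CPM in tamoxifen (-0.69, SE 0.56; 95% interval -1.91 to 0.54). Oil replicate 2 alone was far above the other libraries. Ngly1, the deglycosylase that NFE2L1 needs for its activation, stood at 141, 148 and 137 CPM in oil and 171, 179.5 and 175 CPM in tamoxifen. Every tamoxifen library lay above every oil library (0.30, SE 0.16), as for 4.52% of all genes tested. The difference was not called (unadjusted p = 0.0790, adjusted p = 0.999 by edgeR).

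The genes of ubiquitin shuttles and of ubiquitin entry were 2 above 0 and 10 below (median log2 fold change -0.10), with none at an unadjusted p under 0.05. Ube3c, a ligase bound to the proteasome, stood at 32.0, 19.9 and 22.5 CPM in oil and at 9.98, 21.3 and 17.9 CPM in tamoxifen (-0.59, SE 0.34; unadjusted p = 0.108 by edgeR). Rad23b, a shuttle for ubiquitin chains, stood at 20.3, 12.4 and 15.5 CPM in oil and at 13.3, 11.2 and 11.6 CPM in tamoxifen (-0.42, SE 0.32). The libraries overlapped for both genes.

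Several members share sequence with other genes, which bears on their counts. Of the 46 principal transcripts 15 matched another gene at 95% identity or more over at least 200 bases. Psma5 matched Gm8394 at 98.6% over 952 bases, and that copy had 2675 counts, 64.7% of the 4134 counts of Psma5. Psmd11 matched A730017L22Rik at 97.9% over 1501 bases (1133 counts) and Psmb3 matched Gm4950 at 97.1% over 615 bases (796 counts). Psmd2 matched Gm5422 at 96.4% over 2726 bases (712 counts). None of these copies was called, and their log2 fold changes were 0.04 (Gm8394), -0.11 (A730017L22Rik), 0.05 (Gm4950) and 0.20 (Gm5422). How multiply matching reads were assigned was not given, so the levels of these members are uncertain. Psmb7, Psmc3ip, Psmd1, Psmd13 and Psmg3 matched genes that overlap them in the genome. Of opposite-strand neighbours, Nek6 shares 11.8% of the exon bases of Psmb7, Gm26745 25.5% of those of Psmd9, Sirt3 10.1% of those of Psmd13 and Slc39a13 8.25% of those of Psmc3. Nek6, which encodes a mitotic kinase, had a log2 fold change of 0.43 (SE 0.19; unadjusted p = 0.0432, adjusted p = 0.999 by edgeR), so the level of Psmb7 is uncertain as well.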

How the data were processed

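The values come from a single table, which holds whole-number counts and FPKM values per gene and library, as deposited and named per the file headers, with the authors' mean FPKM per group and the authors' deposited p-value and q-value for tamoxifen against oil. HISAT2, StringTie and the build mm10 are named, without roles or versions, per the submitters' processing notes; strand setting and treatment of multiply matching reads are not given in these sources. Per the labels' protocols, cDNA came from a SMARTer Ultra Low kit followed by PCR, so counts are not counts of independent molecules. A floor of 3 counts equals 0.474 to 0.567 CPM.

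Counts were fitted in edgeR 4.0.16 (R 4.3.3) by its quasi-likelihood method: TMM scaling, the default filter, group as the only term, 6 libraries, and Benjamini-Hochberg adjustment over all 10811 genes at 0.05. CPM values use library totals times TMM factors. Within-group SDs and differences between libraries are of log2(CPM + 0.5). Coding lengths, transcripts and exon overlaps are from GENCODE M21 (GRCm38), in which all 46 members were found, 36 with identical coordinates. The fit was tested on simulated data. The members and lists were chosen with earlier results of these data known. Values in each library are given for the 2 members with the smallest p and that with the highest FPKM in each class, for paralogous pairs and, chosen after their values were seen, for Psme1 and Psmd4. Of each pathway list, the 2 genes with the smallest p are given. For Psma8 the count is given. Paaf1 was not among the deposited genes under that symbol, and Nfe2l3 did not pass the filter. Alternatives were scaling by RLE or by upper quartiles, other tools (DESeq2 1.42.0, and voom in limma 3.58.1), no filter or 10 counts per library of a group, log2(FPKM + 1) and log2(FPKM + 0.1), a length trend, a replicate block, and each library left out.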

Additional observations from a re-analysis of the deposited data

How the results depend on the processing

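Over the 17 alternatives, edgeR, DESeq2 and limma called 0 of the 46 proteasome members in each, and the smallest adjusted p of any member was 0.609 (without oil replicate 3). The median log2 fold change of the members was 0.02 to 0.03 over the 11 alternatives that kept all libraries, and -0.05 to 0.20 when 1 library was left out. Of the 22 members named by rule (Psme1 and Psmd4 not counted), 0 changed sign under 10 of those 11 alternatives, 1 with the length trend, and 2 to 6 when 1 library was left out. The count of all genes called was 1 in the main analysis, 21 with DESeq2, 6 without a filter, and 0 to 6 with 1 library left out (0 without tamoxifen replicate 3, where 282 had an unadjusted p under 0.05). limma called 0 on log2(FPKM + 1) (445 at an unadjusted p under 0.05; 635 without a filter, again 0 called) and 0 on log2(FPKM + 0.1) (438). With the replicate number as a block, edgeR called 0 genes (564 at an unadjusted p under 0.05) and 0 members, whose median was 0.03. The labels state no pairing, so the numbers were not taken to pair the libraries. Deviations of same-numbered libraries correlated at -0.07, 0.27 and 0.16, and oil replicate 1 correlated best with tamoxifen replicate 2 (0.11). The 0.27, of replicate 2 in both groups, was the highest of all pairs across groups. The difference between replicates 3 and 2 in oil went with that in tamoxifen (Spearman's rho 0.40 over 9922 genes, 0.57 over the members). The column names skip the same number in both groups. Whether same-numbered libraries shared a batch or were paired is not stated. The cause of the differences between alternatives was not tested. With 3 libraries per group, the intervals of the members reached 0.82 in log2.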
